A study of Mus musculus with 22 samples.

Results

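The genes described here are the 37 genes of mouse mitochondrial DNA, taken from the expression table as every gene whose symbol begins with mt-, out of 55335 genes in all. They comprise 13 messenger RNAs (mRNAs) for respiratory chain proteins, 2 ribosomal RNAs (rRNAs) and 22 transfer RNAs (tRNAs). RNA-seq was made from mouse embryos in which the histone variant H2A.Z was knocked down (KD) and from control embryos at 3 stages, to learn which transcripts depend on H2A.Z. The embryos came from superovulated B6D2F1 females aged 8 weeks, mated with B6D2F1 males in the study's methods, and each library pooled 15 embryos. For KD, zygotes at the pronuclear stage were injected with about 10 pl of a mix of 3 pairs of siRNAs against H2A.Z and cultured in G1-plus medium. The labels give the other embryos as control, and do not say whether these were injected. For quantitative PCR, the study's methods name control embryos that were not injected. By the study's methods, 2-cell embryos were collected by 44 h, morulae at 78 h and blastocysts at 94 h after hCG, the hormone that triggers ovulation. Each stage had 4 libraries of control embryos, beside 3 KD libraries of 2-cell embryos, 3 of morulae and 4 of blastocysts.

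Values below are in FPKM, fragments per kilobase of transcript scaled to the mapped fragments of a library, and are listed in the order of the library numbers. These numbers were 1, 2, 4 and 5 for control 2-cell embryos, 1, 2 and 4 for KD 2-cell embryos, 1, 2, 7 and 8 for control morulae, 1, 2 and 6 for KD morulae, and 1, 4, 5 and 6 for both blastocyst groups. H2afz, the main gene for H2A.Z, had 1244, 1236, 905 and 1178 FPKM in control and 415, 139 and 112 FPKM in KD 2-cell libraries. Morula values of H2afz were 1158, 1336, 1511 and 1421 in control and 30.3, 25.7 and 28.997 in KD libraries. In blastocysts H2afz stood at 2656, 2431, 1945 and 2055 in control and 64.2, 67.2, 53.2 and 57.6 in KD libraries. At each stage every KD library lay below every control library, as labelled. H2afv, the second H2A.Z gene, overlapped between groups in no stage other than the 2-cell stage, with 12.9, 11.01 and 9.90 FPKM in KD morulae against 97.3, 113, 100.005 and 92.5 in control morulae.

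As background, mitochondrial DNA is a small circular genome that is transcribed from both strands into long precursor RNAs. The tRNAs lie between most of the mRNAs and rRNAs, and their excision releases the neighbouring transcripts, which are then polyadenylated. Early mouse embryos inherit their mitochondria from the oocyte, and respiration by the blastocyst depends on subunits made from both the mitochondrial and the nuclear genome.

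In the annotation of the GRCm38 (mm10) genome build, the members took up bases 1 to 15422 of the mitochondrial chromosome, with 12 mRNAs, both rRNAs and 14 tRNAs on the plus strand and mt-Nd6 with 8 tRNAs on the minus strand. Of neighbouring members, 9 pairs overlapped, from 1 base for mt-Atp6 with mt-Co3 to 43 bases for mt-Atp8 with mt-Atp6 at chrM:7927-7969. The libraries, primed with oligo-dT and made from amplified cDNA, keep no record of the strand, so mt-Nd6 and the 8 minus-strand tRNAs cannot be told apart from antisense RNA. The tRNAs are 59 to 75 bases long, and their values cannot be told apart from fragments of precursors or of neighbouring transcripts. The depth in reads is unknown, and a relative depth from the step between low FPKM values lay between 14.9 and 28.8 in the 22 libraries. Only 7.88 to 19.1% of the low values lay on this step, so the estimate is rough. Its mean was 24.4 in control and 24.1 in KD morulae, and 18.2 in control and 19.6 in KD blastocysts.

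The 37 genes together held a large part of the total FPKM of every library. Their share of the total was 22.8, 27.04, 20.7 and 21.8% in control and 26.9, 22.8 and 26.3% in KD 2-cell libraries. In morulae the share was 13.3, 14.4, 14.6 and 13.4% in control and 17.3, 18.3 and 15.7% in KD libraries. Blastocyst shares were 20.04, 16.3, 15.2 and 17.1% in control and 14.6, 14.9, 12.98 and 15.3% in KD libraries. The 3 KD morula libraries all lay above the 4 control ones, KD blastocysts lay on the low side with KD library 6 above control library 5, and the 2-cell groups overlapped widely. FPKM are per length, so short genes weigh more than in a share of reads. With each FPKM multiplied by gene length, the share was 6.82 to 9.96% in control and 7.96 to 9.77% in KD 2-cell libraries, and 4.60 to 5.13% in control and 5.54 to 6.88% in KD morulae. In blastocysts it was then 5.92 to 8.61% in control and 4.89 to 5.78% in KD libraries, so that the blastocyst groups did not overlap on this scale, with a difference of -1.60 points (adjusted p = 0.05). Because these are bulk libraries of whole embryos, fewer cells of a type and less RNA per cell cannot be told apart.

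The mean share was 13.9 ± 0.679% (SD, n = 4) for control morulae, against 17.1 ± 1.29% (SD, n = 3) for KD morulae, a difference of 3.18 percentage points with a two-sided exact permutation p of 0.0286, the smallest that 35 splits allow. Adjusted by the Benjamini-Hochberg method over 7 comparisons of the share, this p was 0.05, which did not pass the threshold of under 0.05. In blastocysts the KD share differed by -2.71 points (exact permutation p = 0.0571, adjusted p = 0.08), and at the 2-cell stage by 2.25 points (exact permutation p = 0.286, adjusted p = 0.286). From control 2-cell embryos to control morulae the share differed by -9.14 points, and from control morulae to control blastocysts by 3.22 points, each with an exact permutation p of 0.0286 and an adjusted p of 0.05. KD morulae differed from KD 2-cell embryos by -8.21 points (exact permutation p = 0.1, the smallest that 20 splits allow, adjusted p = 0.117). KD blastocysts differed from KD morulae by -2.67 points (exact permutation p = 0.0286, adjusted p = 0.05). None of the 7 comparisons of the share thus passed after adjustment. Without the 22 tRNAs the adjusted p was 0.04 for 5 of the comparisons, with a KD difference of 2.36 points in morulae and -2.89 points in blastocysts. Without control blastocyst library 5 the difference of all 37 genes was -3.37 points in KD blastocysts and 3.88 points from control morulae to control blastocysts, and both then passed. Without control blastocyst library 1 these differences were -1.74 and 2.25 points, and neither passed. The KD difference in blastocysts minus that in morulae was -5.89 points, given without a test. The comparisons share libraries, since each morula group stands in 3 of them and each other group in both a KD comparison and a developmental one.

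**Figure D1:**
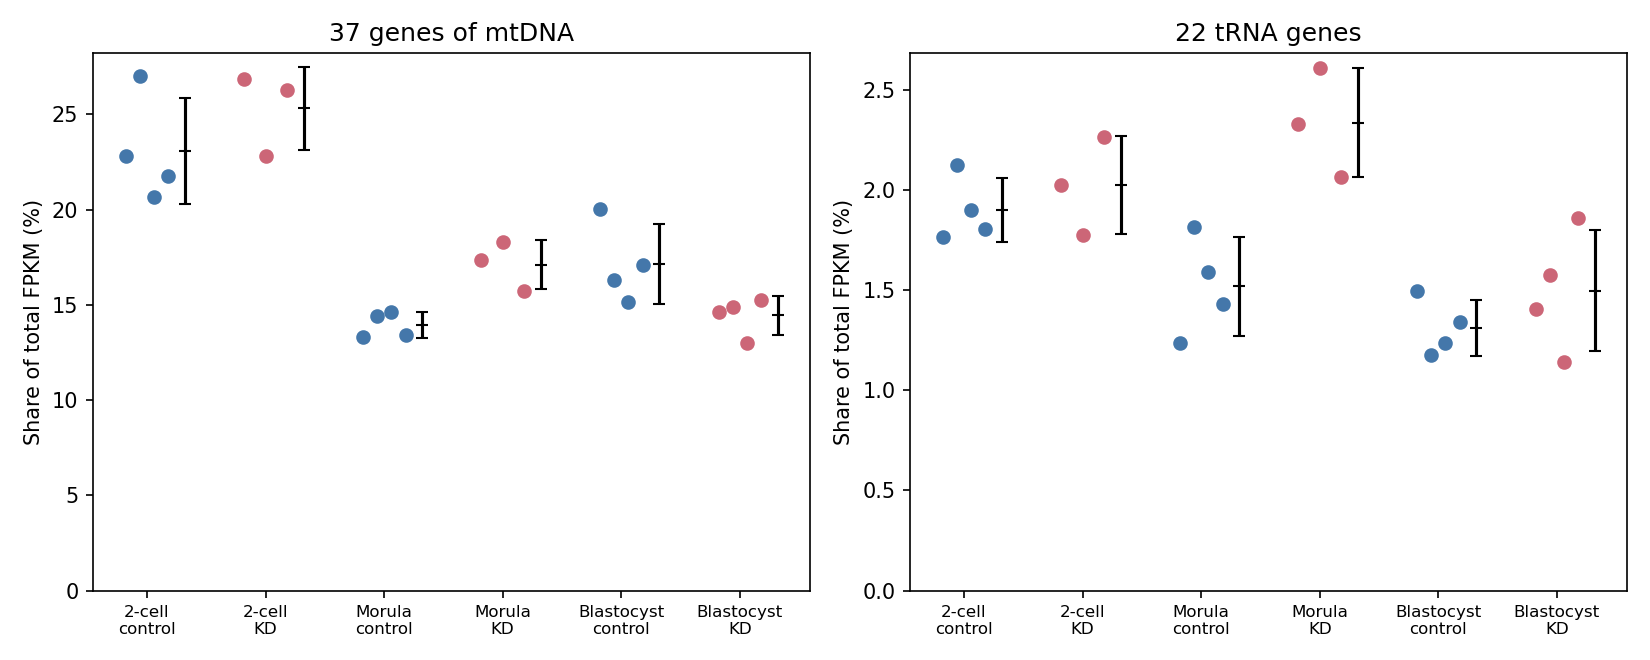
Share of the 37 mitochondrial genes in the total FPKM of each library, in percent, for the 6 groups, with libraries as points and means as bars. KD morulae, at 15.7 to 18.3%, sit above control morulae, at 13.3 to 14.6%, while KD blastocysts, at 12.98 to 15.3%, overlap the lower end of control blastocysts, at 15.2 to 20.0%.

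Single genes were compared with limma on log2 values across all genes tested, and a gene passed at a Benjamini-Hochberg adjusted p under 0.05. All 37 members passed the filter on low values in each of these fits. At the 2-cell stage, 0 members were higher and 0 lower in KD by limma, where 0% and 0% of the 12160 genes tested passed in these directions. At an unadjusted p under 0.05, 1 member was higher and 0 were lower, against 2.89% and 2.87% of all genes. In KD morulae 17 members were higher, against 4.23% of all 10989 genes tested, and 0 were lower by limma, against 9.04%. By the unadjusted p, 34 members were higher and 0 lower, against 12.8% and 17.7% of all genes. In KD blastocysts 18 members were higher, against 16.7% of 11828 genes, and 4 were lower, against 19.8%.

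The median log2 fold change of the members in KD was 0.16 at the 2-cell stage, 0.77 in morulae and 0.52 for blastocysts, beside 0.00352, 0.02 and 0.00470 over all genes tested. In blastocysts the classes parted, with a median of -0.23 for the 13 mRNAs and 1.41 for the 22 tRNAs. The morula count varied with single libraries and with the settings of the fit. With the percentage of all genes higher in the same fit in brackets, it was 5 (1.30%) without KD library 2, 6 (1.52%) without KD library 1 and 27 (3.28%) without KD library 6. It was 25 (5.22%) without control library 1, 11 (2.40%) without control library 7 and 10 (2.48%) without control library 8. When no filter on low FPKM was used it was 2 (0.392%), and in the FPKM as deposited, without further scaling, 11 (2.56%). It was 31 (7.07%) with the range of library numbers as a batch and 30 (5.87%) with the library number as a block. Only numbers 1 and 2 stand in both morula groups, so that the blocked fit drew its KD difference from 2 pairs, without KD library 6 and control libraries 7 and 8, and had 1 residual degree of freedom.

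Along development, 12 members were higher in control morulae than in control 2-cell embryos, against 43.0% of 13655 genes, and 16 were lower, against 40.3%. From control morulae to control blastocysts 6 members were higher, against 27.6% of 11849 genes, and 21 were lower, against 28.8%. From KD 2-cell embryos to KD morulae 17 members were higher, against 43.6% of 12690 genes, and 6 were lower, against 40.0%. From KD morulae to KD blastocysts 0 members were higher by limma, against 19.2% of 11370 genes, and also 0 at an unadjusted p under 0.05, against 23.4%. In the same step 23 members were lower, against 18.2%. These steps share their libraries with the KD comparisons and with each other.

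The scaling moved the middle of all genes in some comparisons. In FPKM as deposited the median of all genes moved from 0.02 to -0.09 between control and KD morulae and from -0.03 to 0.13 between KD morulae and KD blastocysts. Scaled to an equal total of nuclear genes, from 2-cell embryos to morulae the median of all genes moved from 0.10 to -0.40 in control and from 0.12 to -0.47 in KD embryos, and that of the members from -0.33 to -0.98 and from 0.30 to -0.44. With that scaling the counts of members for this step were 5 higher in control, against 33.5% of all genes, and 11 higher and 17 lower in KD, against 32.8% and 49.7%. Without KD morula library 1 or 6, 3 members were lower from KD 2-cell embryos to KD morulae in the usual scaling, against 42.5% and 43.3% of all genes.

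As a mean over the 22 libraries, mt-Cytb at 19622 FPKM ranked first of all genes in the table. It was followed among the members by mt-Atp6 at 18410.1, mt-Atp8 at 11947, mt-Nd1 at 10169, mt-Rnr2 at 6724 and mt-Co1 at 6334 FPKM, which ranked 3 to 7. Between mt-Cytb and mt-Atp6 stood Gm10925, a nuclear copy of mt-Atp6, at 18952 FPKM. Reads may be split between some members and their nuclear copies, given below, and no copy of mt-Cytb was found. The order of the members, with mt-Cytb above mt-Atp6, is thus not settled by these values. The lowest mRNA was mt-Nd3, at 388 FPKM and rank 212, and the lowest tRNA was mt-Ts1, with 0.0805 to 18.6 FPKM. No member was listed at 0 in any library. Neighbours in this order, such as mt-Cytb and mt-Atp6, overlapped in the range of their libraries, 11199 to 31614 against 11508 to 27454 FPKM. The order did not hold within every group, since mt-Atp6 stood above mt-Cytb in KD morulae, with means of 17591 ± 236 (SD, n = 3) and 16314 ± 192 (SD, n = 3) FPKM.

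Of the rRNAs of the mitochondrial ribosome, mt-Rnr2 codes for the large and mt-Rnr1 for the small subunit's RNA. FPKM of mt-Rnr2 were 3172, 4124, 3252 and 3025 in the control libraries and 3439, 3334 and 3785 in the KD libraries at the 2-cell stage. Morula values of mt-Rnr2 were 11242, 9589, 7996 and 7357 in the control libraries and 11108, 11991 and 8679.5 in the KD libraries. In blastocysts mt-Rnr2 stood at 5400.01, 6045, 5785 and 8819 in the control libraries and 5939.5, 7381, 7743 and 8715 in the KD libraries. Every morula library lay above every 2-cell library, while KD and control libraries overlapped at each stage. From 2-cell embryos to morulae mt-Rnr2 rose in control, with a log2 fold change of 1.40 (SE 0.17, adjusted p = 8.04e-06), and in KD embryos, with 1.65 (SE 0.17, adjusted p = 1.47e-05). It fell towards blastocysts in control, by 0.57 (SE 0.18, adjusted p = 0.0169), and in KD embryos, by 0.71 (SE 0.19, adjusted p = 0.0110). For the control step the adjusted p of mt-Rnr2 lay between 0.0513 and 0.0602 without morula control library 2 or blastocyst control library 4 or 5. For the KD step the adjusted p of mt-Rnr2 was 0.0664 without morula KD library 2. The KD difference was 0.36 (adjusted p = 0.135) in morulae. FPKM of mt-Rnr1 ranged from 1491 to 2248 in control 2-cell embryos, 1079 to 1904 in control morulae and 448 to 1088 in control blastocysts. In KD embryos mt-Rnr1 ranged from 1696 to 2178, 1802 to 2518 and 438 to 1321 at the same stages. All KD blastocyst values of mt-Rnr1 were thus under those of KD morulae, with a log2 fold change of -1.42 (SE 0.31, adjusted p = 0.00384). In control embryos mt-Rnr1 also fell from morulae to blastocysts, by 0.90 (SE 0.30, adjusted p = 0.0243), but the adjusted p of mt-Rnr1 lay between 0.0525 and 0.0677 without morula control library 2 or 7 or blastocyst control library 5. Neither rRNA passed in a KD comparison, although each had an unadjusted p under 0.05 in morulae. mt-Rnr2 in the control step to blastocysts did not pass with no filter (adjusted p = 0.0645). mt-Rnr2 in the KD step to blastocysts did not pass with no filter (adjusted p = 0.0575). mt-Rnr1 in the control step to blastocysts did not pass with no filter (adjusted p = 0.114). mt-Rnr1 in the KD step to blastocysts did not pass with no filter (adjusted p = 0.0647).

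Complex I, which passes electrons from NADH to ubiquinone, takes 7 subunits from mitochondrial DNA. One of them is mt-Nd1, a subunit of the membrane arm next to the ubiquinone site. Morula values of mt-Nd1 were 8368, 8098, 7876 and 6854 in the control libraries and 9501, 10447 and 8142 in the KD libraries. In blastocysts mt-Nd1 stood at 21054, 15313, 15170.1 and 17096 in the control libraries and 10028, 10430.5, 10019 and 10717 in the KD libraries. The morula groups overlapped, whereas all KD blastocysts lay below all control blastocysts and spanned 10019 to 10717. From morulae to blastocysts mt-Nd1 rose in control embryos, with a log2 fold change of 1.04 (SE 0.18, adjusted p = 0.000409). In KD embryos it had -0.053 (adjusted p = 0.835), of which the sign turned to 0.14 in FPKM as deposited and 0.064 scaled to the nuclear total. On leaving out libraries it was 0.023 without morula KD library 2 and 0.013 without blastocyst KD library 5. Between the groups mt-Nd1 fell in KD blastocysts, by 0.72 (SE 0.20, adjusted p = 0.0161). mt-Nd1 in KD blastocysts did not pass with no filter (adjusted p = 0.0656). At the 2-cell stage mt-Nd1 ranged from 7109.99 to 8757 in control and 7399.9 to 9016 in KD libraries.

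The neighbouring gene mt-Nd2, also of the membrane arm, had a different course. Morula values of mt-Nd2 were 2759, 2688, 2382 and 2167 in the control libraries and 4153, 4784 and 3437 in the KD libraries. In blastocysts mt-Nd2 stood at 1775, 1143, 1047 and 1341 in the control libraries and 2341, 2749.7, 2899.6 and 2986 in the KD libraries. KD libraries lay above control libraries without overlap at both stages. The log2 fold change of mt-Nd2 in KD was 0.84 (SE 0.14, adjusted p = 0.00614) in morulae. mt-Nd2 in KD morulae did not pass with no filter (adjusted p = 0.0502). In KD blastocysts it was 1.08 (SE 0.22, adjusted p = 0.00232). From morulae to blastocysts mt-Nd2 fell in control embryos, by 1.02 (SE 0.20, adjusted p = 0.00115), and in KD embryos, by 0.78 (SE 0.17, adjusted p = 0.00407). It rose from 2-cell embryos to morulae in KD embryos, with 0.87 (SE 0.17, adjusted p = 0.00111), with a value of 0.13 when scaled to the nuclear total. mt-Nd2 in the KD step to morulae did not pass scaled to the nuclear total (adjusted p = 0.490). Its 2-cell values ranged from 1883 to 2559 in control and 2167 to 2527 in KD libraries.

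Lower in level, mt-Nd3 lies in the same arm of complex I. Morula values of mt-Nd3 were 419, 392, 266 and 258 in the control libraries and 549, 609 and 392 in the KD libraries. In blastocysts mt-Nd3 stood at 196, 121, 191 and 225 in the control libraries and 221, 385, 286 and 358 in the KD libraries. KD libraries were the higher ones at both stages, with an overlap of 1 KD library each, 6 in morulae and 1 in blastocysts. The log2 fold change of mt-Nd3 in KD was 0.76 (SE 0.19, adjusted p = 0.0271) in morulae and 0.78 (SE 0.24, adjusted p = 0.0227) in blastocysts. For morulae the adjusted p of mt-Nd3 lay between 0.0686 and 0.126 without morula control library 7 or 8 or morula KD library 1 or 2. For blastocysts the adjusted p of mt-Nd3 lay between 0.0616 and 0.0761 without blastocyst control library 4 or blastocyst KD library 4 or 6. mt-Nd3 in KD morulae did not pass with no filter (adjusted p = 0.130), in FPKM as deposited (adjusted p = 0.0668) or scaled to the nuclear total (adjusted p = 0.0680). mt-Nd3 in KD blastocysts did not pass with no filter (adjusted p = 0.106). Between morulae and blastocysts mt-Nd3 fell in control embryos, by 0.95 (SE 0.22, adjusted p = 0.00300), and in KD embryos, by 0.93 (SE 0.22, adjusted p = 0.00621). From 2-cell embryos, at 454 to 615 FPKM, to morulae it fell in control by 0.66 (SE 0.19, adjusted p = 0.00596). mt-Nd3 in the KD step to blastocysts did not pass with no filter (adjusted p = 0.0588).

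The genes mt-Nd4l and mt-Nd4 share 7 bases at chrM:10167-10173 and are carried on a common mRNA. Morula values of mt-Nd4l were 1737, 1764, 1376 and 1316 in the control libraries and 2369, 2529 and 1749 in the KD libraries. Morula values of mt-Nd4 were 2771, 2432, 2169 and 2065 in the control libraries and 3187, 3247 and 2472 in the KD libraries. In both, KD libraries 1 and 2 lay above all control libraries and KD library 6 among them. The log2 fold change in KD morulae was 0.64 (SE 0.15, adjusted p = 0.0243) for mt-Nd4l and 0.45 (SE 0.13, adjusted p = 0.0469) for mt-Nd4. As to single libraries, the adjusted p of mt-Nd4l lay between 0.0672 and 0.120 without morula control library 7 or 8 or morula KD library 1 or 2. For the other gene the adjusted p of mt-Nd4 lay between 0.0823 and 0.199 without morula control library 2, 7 or 8 or morula KD library 1 or 2. mt-Nd4l in KD morulae did not pass with no filter (adjusted p = 0.111), in FPKM as deposited (adjusted p = 0.0537) or scaled to the nuclear total (adjusted p = 0.0542). mt-Nd4 in KD morulae did not pass with no filter (adjusted p = 0.138), in FPKM as deposited (adjusted p = 0.132), scaled to the nuclear total (adjusted p = 0.130), without a trend in limma (adjusted p = 0.0681) or with the library number as a block (adjusted p = 0.131). In KD blastocysts the differences were 0.072 (adjusted p = 0.809) for mt-Nd4l and -0.16 (adjusted p = 0.536) for mt-Nd4. At the 2-cell stage, mt-Nd4l had the lowest difference of the 15 mRNAs and rRNAs, 0.00281 (adjusted p = 1.00), which turned to -0.064 in FPKM as deposited and -0.035 scaled to the nuclear total. It was -0.023 without 2-cell control library 4, -0.066 without 2-cell control library 5 and -0.030 without 2-cell KD library 1. From 2-cell embryos to morulae both fell in control embryos, mt-Nd4l by 0.60 (SE 0.16, adjusted p = 0.00426) and mt-Nd4 by 0.62 (SE 0.15, adjusted p = 0.00195). Towards blastocysts mt-Nd4 rose in control by 0.49 (SE 0.17, adjusted p = 0.0279), where the adjusted p of mt-Nd4 lay between 0.0566 and 0.0765 without morula control library 2, 7 or 8 or blastocyst control library 6. In KD embryos the same step gave -0.11 (adjusted p = 0.620) for mt-Nd4, with 0.084 in FPKM as deposited and 0.00337 scaled to the nuclear total. mt-Nd4 in the control step to blastocysts did not pass with no filter (adjusted p = 0.0784).

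The last subunits of complex I on this genome are mt-Nd5 and mt-Nd6, which overlap on opposite strands by 14 bases at chrM:13552-13565. Morula values of mt-Nd6 were 833, 572, 504 and 424 in the control libraries and 922, 987 and 683 in the KD libraries. In blastocysts mt-Nd6 stood at 860.2, 692, 768 and 859.6 in the control libraries and 636, 611, 965 and 695 in the KD libraries. KD morula libraries tended to the high side and overlapped the control libraries through control library 1, and in blastocysts the groups were mixed. The log2 fold change of mt-Nd6 in KD morulae was 0.72 (SE 0.19, adjusted p = 0.0305), and the adjusted p of mt-Nd6 lay between 0.0598 and 0.137 without morula control library 2, 7 or 8 or morula KD library 1 or 2. mt-Nd6 in KD morulae did not pass with no filter (adjusted p = 0.140), in FPKM as deposited (adjusted p = 0.0908) or scaled to the nuclear total (adjusted p = 0.0942). Between 2-cell embryos and morulae mt-Nd6 rose in KD embryos, with 0.84 (SE 0.16, adjusted p = 0.000704), and in control embryos, with 0.44 (SE 0.19, adjusted p = 0.0459). Scaled to the nuclear total these values were 0.10 in KD and -0.21 in control embryos, and in control embryos the adjusted p of mt-Nd6 lay between 0.0573 and 0.140 without 2-cell control library 1, 4 or 5 or morula control library 1 or 2. mt-Nd6 in the control step to morulae did not pass with no filter (adjusted p = 0.0991). mt-Nd6 in the KD step to morulae did not pass scaled to the nuclear total (adjusted p = 0.571). FPKM of mt-Nd5 ranged from 1129 to 1451 in control 2-cell embryos, 884 to 1526 in control morulae and 1122 to 1433 in control blastocysts. KD ranges of mt-Nd5 were 1281 to 1305, 1266 to 2198 and 1122 to 1771, which overlap the control ranges at each stage. It passed only in the KD step from 2-cell embryos to morulae, with 0.48 (SE 0.19, adjusted p = 0.0432), which became -0.27 when scaled to the nuclear total. There the adjusted p of mt-Nd5 lay between 0.0563 and 0.135 without 2-cell KD library 1, 2 or 4 or morula KD library 1 or 2. mt-Nd5 in the KD step to morulae did not pass with a pseudocount of 0.1 (adjusted p = 0.0510), with no filter (adjusted p = 0.135) or in FPKM as deposited (adjusted p = 0.0901).

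Complex III, which passes electrons on to cytochrome c, takes a single subunit from this genome, cytochrome b, encoded by mt-Cytb. FPKM of mt-Cytb were 24107, 31614, 18495 and 22148 in the control libraries and 31259.6, 22481 and 30089 in the KD libraries at the 2-cell stage. Morula values of mt-Cytb were 11382, 14712, 18392 and 16588 in the control libraries and 16218, 16188 and 16535 in the KD libraries. In blastocysts mt-Cytb stood at 24497, 18919, 15703 and 17221 in the control libraries and 19755, 18720.3, 11199 and 15465 in the KD libraries. The 3 KD morulae lay close together inside the control range, and the groups overlapped at the other stages too. In KD the log2 fold change of mt-Cytb was 0.29 at the 2-cell stage, 0.24 for morulae and -0.23 in blastocysts, with adjusted p of 0.867, 0.445 and 0.535. From 2-cell embryos to morulae mt-Cytb fell in control embryos, by 0.66 (SE 0.25, adjusted p = 0.0268), and in KD embryos, by 0.68 (SE 0.21, adjusted p = 0.0124). In control embryos the adjusted p of mt-Cytb lay between 0.0572 and 0.0955 without 2-cell control library 1 or 2 or morula control library 1 or 2. In KD embryos the adjusted p of mt-Cytb lay between 0.0559 and 0.0950 without morula KD library 1, 2 or 6. mt-Cytb in the control step to morulae did not pass with no filter (adjusted p = 0.157). mt-Cytb in the KD step to morulae did not pass with no filter (adjusted p = 0.101).

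Complex IV, cytochrome c oxidase, reduces oxygen to water, and its catalytic core is made of the products of mt-Co1, mt-Co2 and mt-Co3. FPKM of mt-Co1, for the subunit that binds the haem and copper at the oxygen site, were 6308, 7864, 5387 and 5075 in the control libraries and 7671, 6777 and 5454 in the KD libraries at the 2-cell stage. Morula values of mt-Co1 were 4106, 3771, 2537 and 2143 in the control libraries and 6091, 6196 and 4055 in the KD libraries. In blastocysts mt-Co1 stood at 13345, 10587, 9831 and 11611 in the control libraries and 4059, 5222, 5002 and 6253 in the KD libraries. All control blastocysts lay above all other libraries of either group, KD blastocysts lay at the level of KD morulae, and the 2-cell groups overlapped. In morulae control libraries 1 and 2 lay above 7 and 8, and KD libraries 1 and 2 above 6, so that KD library 6 overlapped the control range. The log2 fold change of mt-Co1 in KD morulae was 0.95 (SE 0.21, adjusted p = 0.0179). With the range of library numbers, 1 and 2 against higher numbers, as a term, it was 0.85 (adjusted p = 0.00196). On leaving out libraries, the adjusted p of mt-Co1 lay between 0.0729 and 0.0848 without morula KD library 1 or 2. mt-Co1 in KD morulae did not pass with no filter (adjusted p = 0.124). In KD blastocysts mt-Co1 fell, by 1.14 (SE 0.21, adjusted p = 0.00128). Along development it fell from 2-cell embryos to morulae in control, by 1.01 (SE 0.22, adjusted p = 0.00114), and rose from there to blastocysts by 1.81 (SE 0.21, adjusted p = 2.41e-05). The KD step from morulae to blastocysts gave -0.27 (adjusted p = 0.313).

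FPKM of mt-Co2, for the subunit that takes electrons from cytochrome c, were 3834, 4580.1, 3493 and 3460.2 in the control libraries and 4138, 4075 and 3610.4 in the KD libraries at the 2-cell stage. Morula values of mt-Co2 were 2242, 2447, 2014 and 1842 in the control libraries and 2931, 3189.9 and 2183 in the KD libraries. In blastocysts mt-Co2 stood at 7776, 4679, 4587 and 5610.4 in the control libraries and 2051, 2608, 2569 and 2809 in the KD libraries. The control blastocysts were again apart on the high side of the KD blastocysts, and the groups overlapped at the 2-cell and morula stages. In KD blastocysts mt-Co2 fell by 1.14 (SE 0.23, adjusted p = 0.00234). In KD morulae the difference was 0.49 (adjusted p = 0.0613). From 2-cell embryos to morulae mt-Co2 fell in control embryos by 0.85 (SE 0.17, adjusted p = 0.000575), and in KD embryos by 0.45 (SE 0.17, adjusted p = 0.0326). For the KD step the adjusted p of mt-Co2 lay between 0.0542 and 0.230 without 2-cell KD library 1 or morula KD library 1, 2 or 6. mt-Co2 in the KD step to morulae did not pass with no filter (adjusted p = 0.107). From morulae to blastocysts it rose in control by 1.29 (SE 0.22, adjusted p = 0.000328), while the KD step gave -0.33 (adjusted p = 0.173).

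For mt-Co3, the gene of the third core subunit, FPKM were 3385, 4402, 2763 and 2877 in the control libraries and 4018, 3609 and 3216 in the KD libraries at the 2-cell stage. Morula values of mt-Co3 were 1696, 2214, 2046 and 1827 in the control libraries and 2327, 2464 and 2180.3 in the KD libraries. In blastocysts mt-Co3 stood at 9851, 6581, 5751 and 6499.7 in the control libraries and 2148, 2697, 2179 and 2756 in the KD libraries. Each control blastocyst exceeded each KD blastocyst by more than the range of the KD group, and the groups overlapped at the earlier stages. In KD blastocysts mt-Co3 fell by 1.52 (SE 0.23, adjusted p = 0.000471), the lowest of the 15 mRNAs and rRNAs. In KD morulae its difference was 0.39 (adjusted p = 0.126). In the step from 2-cell embryos to morulae mt-Co3 fell in control by 0.78 (SE 0.21, adjusted p = 0.00505), and in KD embryos by 0.56 (SE 0.15, adjusted p = 0.00768), where the adjusted p of mt-Co3 was 0.0704 without morula KD library 1. From morulae to blastocysts it rose in control by 1.77 (SE 0.22, adjusted p = 4.12e-05), and the KD step gave -0.13 (adjusted p = 0.593).

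ATP synthase, which makes ATP from the proton gradient, takes the membrane subunits a and A6L from mt-Atp6 and mt-Atp8, which share 43 bases and are carried on a common mRNA. Morula values of mt-Atp6 were 11508, 14449, 16821 and 15103 in the control libraries and 17621, 17810.3 and 17341 in the KD libraries. Morula values of mt-Atp8 were 7401, 9246, 10894 and 9903 in the control libraries and 11806, 11499 and 11726 in the KD libraries. In both genes the 3 KD morulae lay above all control morulae. The log2 fold changes did not pass, with 0.42 (adjusted p = 0.144) for mt-Atp6 and 0.46 (adjusted p = 0.121) for mt-Atp8. In blastocysts mt-Atp6 stood at 24888, 17604, 15014 and 17333 in the control libraries and 17990.2, 16709.9, 11877 and 15079 in the KD libraries. There the groups overlapped, and KD differences were -0.26 (adjusted p = 0.456) for mt-Atp6 and -0.25 (adjusted p = 0.485) for mt-Atp8. The ratio of mt-Atp8 to mt-Atp6 lay between 0.617 and 0.696 in the 22 libraries. Both fell from 2-cell embryos to morulae in control embryos, mt-Atp6 by 0.55 (SE 0.23, adjusted p = 0.0410) and mt-Atp8 by 0.55 (SE 0.24, adjusted p = 0.0463). In this step the adjusted p of mt-Atp6 lay between 0.0536 and 0.144 without 2-cell control library 1, 2 or 5 or morula control library 1, 2, 7 or 8. Likewise the adjusted p of mt-Atp8 lay between 0.0532 and 0.163 without 2-cell control library 1, 2 or 5 or morula control library 1, 2, 7 or 8. mt-Atp6 in the control step to morulae did not pass with a pseudocount of 0.1 (adjusted p = 0.0737) or with no filter (adjusted p = 0.197). mt-Atp8 in the control step to morulae did not pass with a pseudocount of 0.1 (adjusted p = 0.0736) or with no filter (adjusted p = 0.189).

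**Figure D2:**
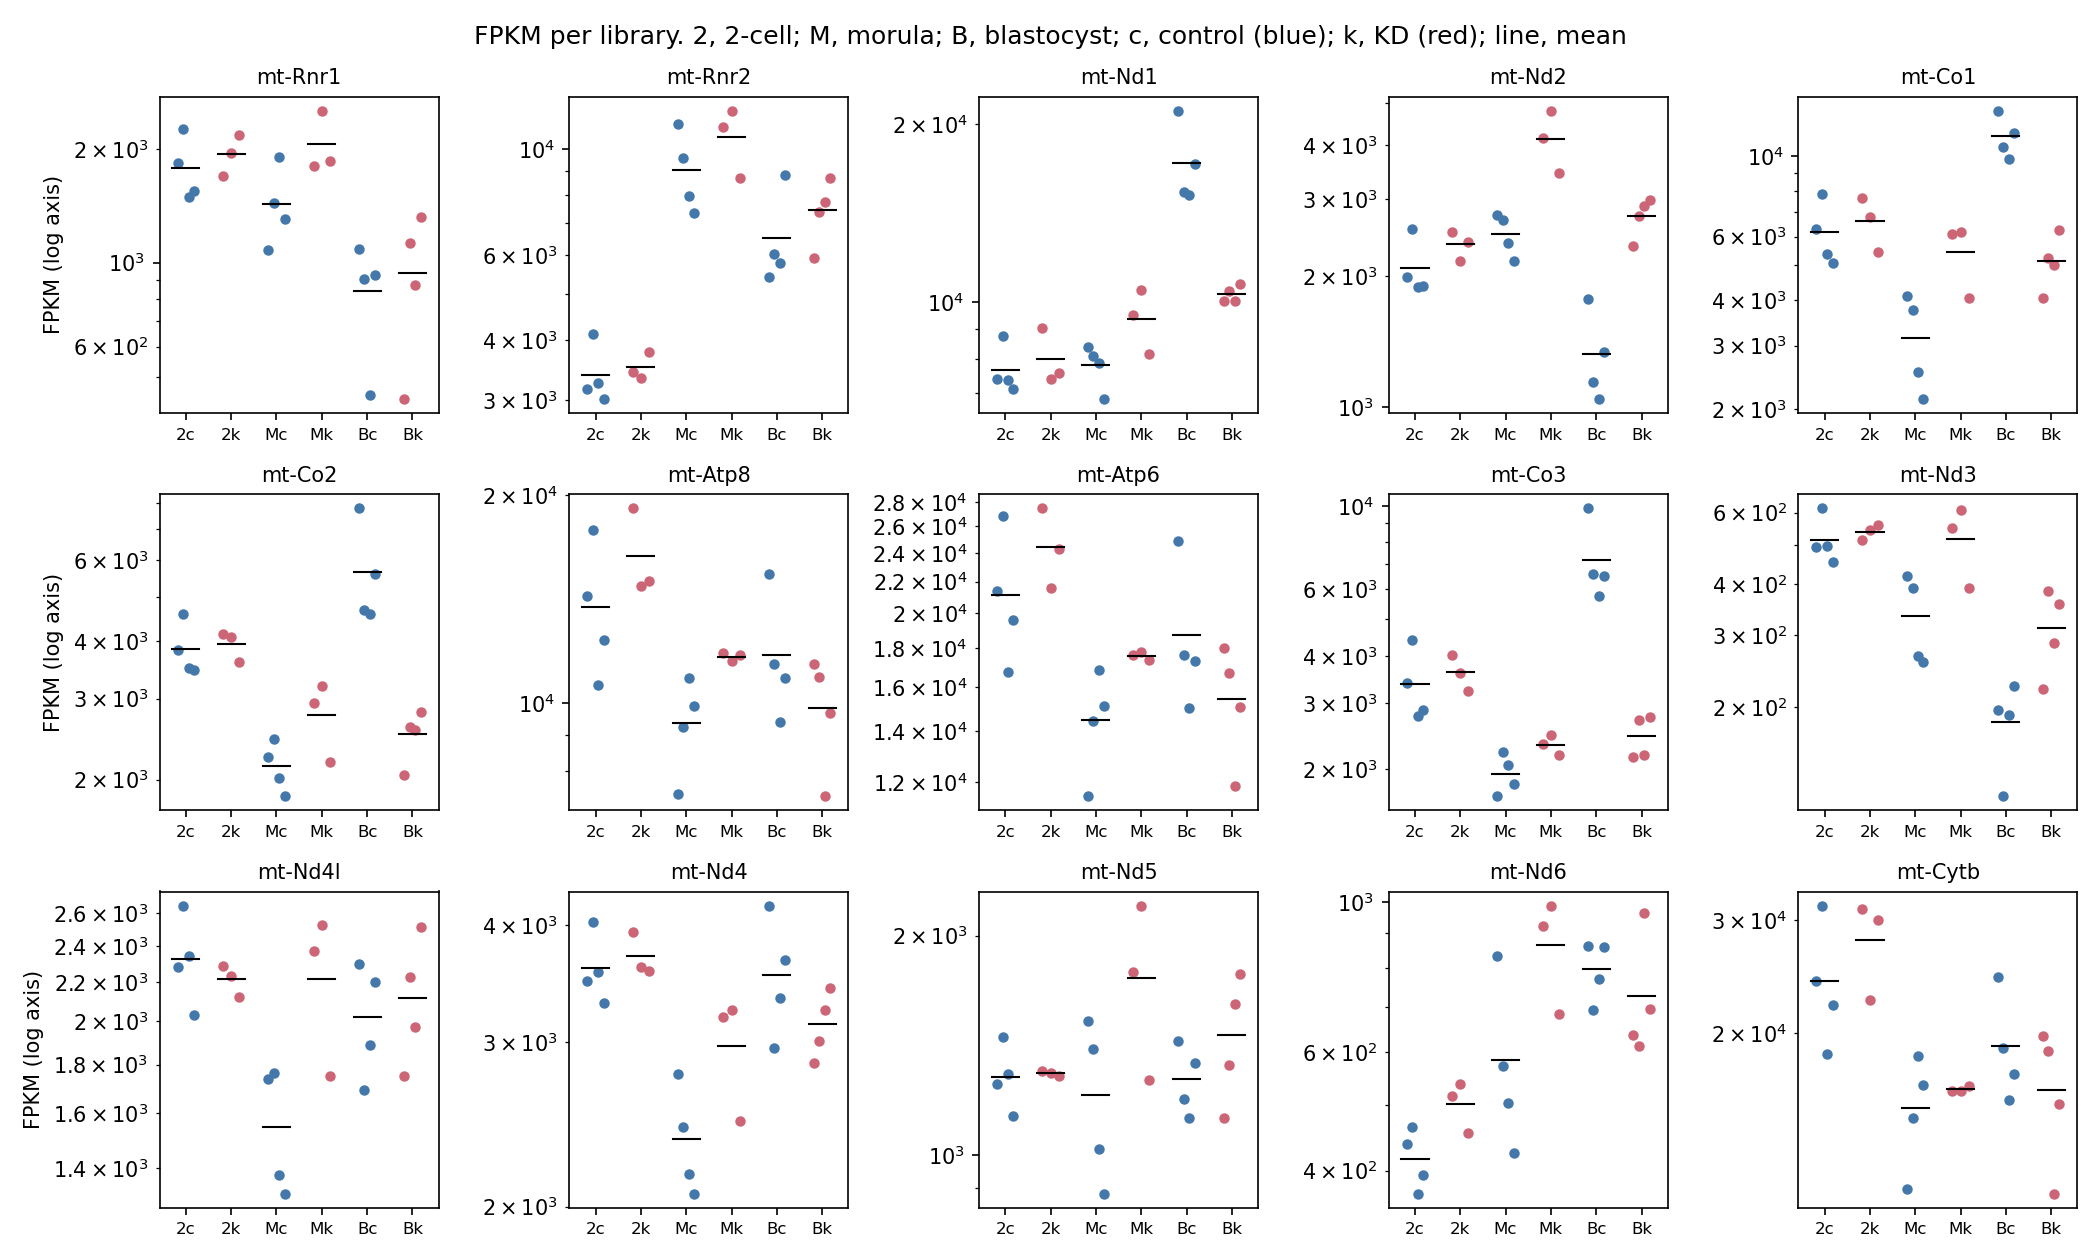
FPKM of the 13 mRNAs and 2 rRNAs in each library, on a log axis, by stage, with control and KD libraries as points. For mt-Co1 the 4 control blastocysts, at 9831 to 13345, stand above the 4 KD blastocysts, at 4059 to 6253, while for mt-Nd2 the KD blastocysts, at 2341 to 2986, stand above the control ones, at 1047 to 1775.

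The make-up of the mRNAs, which does not depend on the scaling of a library, differed between control and KD blastocysts. The 3 complex IV genes made up 24.3, 23.5, 24.1 and 24.7% of the FPKM of the 13 mRNAs in control blastocysts. In KD blastocysts complex IV made up 10.8, 13.6, 15.9 and 15.9%. Control morulae had 14.2, 13.1, 9.66 and 9.47% and KD morulae 14.3, 14.4 and 11.7%. The 2-cell libraries had 13.95 to 15.56% in control and 12.3 to 15.9% in KD embryos. KD blastocysts thus lay apart from control blastocysts and overlapped the ranges of the morulae and of the 2-cell embryos. The ratio of mt-Co1 to mt-Nd2 was 7.52, 9.26, 9.39 and 8.66 in control blastocysts. In KD blastocysts the ratio was 1.73, 1.90, 1.73 and 2.09. Control morulae had 1.49, 1.40, 1.07 and 0.989, and KD morulae 1.47, 1.30 and 1.18. The control blastocysts stood alone on the high side of this ratio, above the 2-cell libraries, which had 2.67 to 3.18 in control and 2.28 to 3.13 in KD embryos. The ratio was chosen after the values were seen, and no test was made on it. The tRNAs made up 7.21 to 8.14% of the FPKM of the 37 genes in control and 8.81 to 12.2% in KD blastocysts, and 9.30 to 12.6% in control and 13.1 to 14.3% in KD morulae. In both stages the KD values lay above the control values without overlap.

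The change of the KD difference between morulae and blastocysts was tested in a fit over both stages. The KD difference of 3 members was higher in blastocysts than in morulae, against 5.43% of 12727 genes, and that of 6 members was lower, against 6.32%. The KD difference of mt-Co1 was lower in blastocysts by 2.13 (SE 0.30, adjusted p = 0.000330) on the log2 scale. That of mt-Co3 was lower by 1.95 (SE 0.29, adjusted p = 0.000574), that of mt-Co2 by 1.67 (SE 0.29, adjusted p = 0.00143), and that of mt-Nd1 by 1.14 (SE 0.23, adjusted p = 0.00469). For mt-Nd6 it was lower by 0.90 (SE 0.25, adjusted p = 0.0291), where the adjusted p of mt-Nd6 lay between 0.0509 and 0.0895 without morula control library 7 or 8, morula KD library 1 or 2, blastocyst control library 1 or 6 or blastocyst KD library 6. mt-Nd6 in the difference of KD effects did not pass in FPKM as deposited (adjusted p = 0.0903). The KD differences of mt-Nd2 and mt-Nd3 did not pass this test, with 0.20 (adjusted p = 0.675) and -0.026 (adjusted p = 0.971), and for mt-Nd3 the sign turned to 0.13 in FPKM as deposited. The value of mt-Nd3 was 0.055 without morula control library 7, 0.043 without morula control library 8, 0.000428 without morula KD library 1, 0.12 without morula KD library 2, 0.074 without blastocyst control library 1, 0.073 without blastocyst control library 6, 0.10 without blastocyst KD library 1 and 0.063 without blastocyst KD library 5. The remaining members past the test were tRNAs, mt-Ti, mt-Tt and mt-Tg on the higher and mt-Tp on the lower side, of which mt-Ti, mt-Tg and mt-Tp are named after their values were seen. For mt-Tt the difference was 1.17 (SE 0.31, adjusted p = 0.0209), and the adjusted p of mt-Tt was 0.0544 without morula KD library 1. Without KD morula library 1 or 6, 1 member was on the higher side. This count is given without the share of all genes in those fits.

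Of the tRNAs, which carry amino acids to the mitochondrial ribosome, mt-Tm for methionine, mt-Tl1 for leucine and mt-Tt for threonine had the highest mean FPKM. FPKM of mt-Tm were 977, 4282, 4317 and 3829.5 in the control libraries and 4078, 5201 and 4582 in the KD libraries in morulae. In blastocysts mt-Tm stood at 9099.5, 6314, 6195 and 7034 in the control libraries and 5146, 5656, 1683 and 5958 in the KD libraries. All KD blastocysts lay below all control blastocysts, the morula groups overlapped, and control morula library 1 and KD blastocyst library 5 lay far under the others of their groups. Without a block, the KD comparisons of mt-Tm in morulae and blastocysts did not pass, with 0.80 (adjusted p = 0.300) in morulae and -0.77 (adjusted p = 0.147) in blastocysts. With the library number as a block, where the 2 morula pairs went from 977 to 4078 and from 4282 to 5201 FPKM and the pair with control library 1 carried most of the difference, the values of mt-Tm were 1.34 (adjusted p = 3.17e-07) in morulae and -0.77 (adjusted p = 0.0458) in blastocysts. It rose from morulae to blastocysts in control, with 1.21 (SE 0.45, adjusted p = 0.0382), where the adjusted p of mt-Tm lay between 0.0545 and 0.0911 without blastocyst control library 1, 4 or 6. mt-Tm in the control step to blastocysts did not pass with no filter (adjusted p = 0.168). From 2-cell embryos to morulae it had -0.43 (adjusted p = 0.386) in control, which turned to 0.19 without control morula library 1 and passed at -1.07 (adjusted p = 0.0265) scaled to the nuclear total, and 0.23 (adjusted p = 0.262) in KD embryos, which turned to -0.51 (adjusted p = 0.0145) scaled to the nuclear total. From KD morulae to KD blastocysts mt-Tm had -0.35 (adjusted p = 0.525), and 0.13 without KD blastocyst library 5.

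Morula values of mt-Tl1 were 1866, 1606, 1196 and 1117 in the control libraries and 2399, 2472 and 1840.3 in the KD libraries. In blastocysts mt-Tl1 stood at 562, 519, 723 and 779 in the control libraries and 1517, 1350.04, 2042 and 1904 in the KD libraries. KD blastocysts lay above control blastocysts without overlap, and in morulae KD library 6 overlapped control library 1. In KD mt-Tl1 rose in morulae, by 0.77 (SE 0.17, adjusted p = 0.0158), and in blastocysts, by 1.41 (SE 0.18, adjusted p = 0.000125). For morulae the adjusted p of mt-Tl1 lay between 0.0628 and 0.0788 without morula KD library 1 or 2. Morula values of mt-Tt were 950.4, 1401, 1652 and 1252 in the control libraries and 2316, 2291 and 2382 in the KD libraries. In blastocysts mt-Tt stood at 103, 106, 160.3 and 163 in the control libraries and 482, 677, 517 and 734 in the KD libraries. In both stages all KD libraries lay above all control libraries. In KD mt-Tt rose in morulae, by 0.98 (SE 0.21, adjusted p = 0.0159), and in blastocysts, by 2.19 (SE 0.20, adjusted p = 1.81e-05). For morulae the adjusted p of mt-Tt lay between 0.0514 and 0.0580 without morula KD library 1 or 2. mt-Tl1 in KD morulae did not pass with no filter (adjusted p = 0.0914). mt-Tt in KD morulae did not pass with no filter (adjusted p = 0.110). In the step from morulae to blastocysts mt-Tt fell in control by 3.38 (SE 0.22, adjusted p = 2.86e-07), and in KD embryos by 2.17 (SE 0.19, adjusted p = 1.53e-05). The same step lowered mt-Tl1 in control by 1.24 (SE 0.18, adjusted p = 0.000106), and in KD embryos by 0.60 (SE 0.17, adjusted p = 0.0183), where the adjusted p of mt-Tl1 lay between 0.0722 and 0.0938 without morula KD library 1 or 2. From 2-cell embryos to morulae mt-Tl1 rose in control by 0.55 (SE 0.20, adjusted p = 0.0208) and mt-Tt by 0.72 (SE 0.24, adjusted p = 0.0151). Scaled to the nuclear total these values were -0.10 and 0.073. In control the adjusted p of mt-Tl1 lay between 0.0694 and 0.0784 without 2-cell control library 4 or 5, and the adjusted p of mt-Tt lay between 0.0509 and 0.0527 without 2-cell control library 4 or 5. In KD embryos this step gave 1.06 (adjusted p = 0.000280) for mt-Tl1 and 1.48 (adjusted p = 6.86e-05) for mt-Tt. mt-Tl1 in the control step to morulae did not pass with no filter (adjusted p = 0.0681). mt-Tt in the control step to morulae did not pass with no filter (adjusted p = 0.0649) or scaled to the nuclear total (adjusted p = 0.711). mt-Tl1 in the KD step to morulae did not pass scaled to the nuclear total (adjusted p = 0.108). mt-Tl1 in the KD step to blastocysts did not pass with no filter (adjusted p = 0.0628), in FPKM as deposited (adjusted p = 0.0877) or scaled to the nuclear total (adjusted p = 0.0534).

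Across the 22 tRNAs, 11 were higher in KD morulae, beside 4.23% of all genes, and the log2 fold changes of all 22 lay between 0.71 and 1.32. In KD blastocysts 16 were higher, beside 16.7% of all genes, and 0 were lower by limma, with 17 higher and 0 lower at an unadjusted p under 0.05, beside 21.8% and 24.2%. The log2 fold changes lay within a range of -0.77 for mt-Tm to 2.56 for mt-Ti. By strand, 12 of 14 on the plus and 4 of 8 on the minus strand were higher in KD blastocysts. Beside mt-Ti for isoleucine, the highest was mt-Tf for phenylalanine, the first gene of the plus strand, and both are named after their values were seen. Blastocyst values of mt-Ti were 88.1, 67.3, 69.1 and 74.2 in the control libraries and 293, 334, 595 and 649.99 in the KD libraries. In blastocysts mt-Tf stood at 29.9, 29.3, 21.6 and 36.7 in the control libraries and 73.1, 210.1, 157 and 309 in the KD libraries. All KD blastocysts lay above all control blastocysts in both genes. The log2 fold change was 2.56 (SE 0.24, adjusted p = 1.73e-05) for mt-Ti and 2.48 (SE 0.35, adjusted p = 0.000252) for mt-Tf. From morulae to blastocysts 17 tRNAs were lower and 1 higher in control, beside 28.8% and 27.6% of all genes. In KD embryos 19 were lower and 0 higher by limma, beside 18.2% and 19.2%.

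The 5 tRNAs with values above are shown because mt-Tm parts from the other 4 in blastocysts. They are given 5′ to 3′ as DNA from the GRCm38 reference, all on the plus strand, with the anticodon in capitals, and lie at chrM:1-68 (mt-Tf), chrM:2676-2750 (mt-Tl1), chrM:3706-3774 (mt-Ti), chrM:3845-3913 (mt-Tm) and chrM:15289-15355 (mt-Tt).
mt-Tf: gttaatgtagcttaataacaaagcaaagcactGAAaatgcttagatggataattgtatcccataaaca
mt-Tl1: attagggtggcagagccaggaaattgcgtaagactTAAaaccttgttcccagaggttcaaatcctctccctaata
mt-Ti: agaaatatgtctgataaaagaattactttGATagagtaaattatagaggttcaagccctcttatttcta
mt-Tm: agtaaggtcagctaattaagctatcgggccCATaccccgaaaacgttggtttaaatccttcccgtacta
mt-Tt: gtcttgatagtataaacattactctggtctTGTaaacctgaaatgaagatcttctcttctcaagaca

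The annotated gene ends of the mRNAs that passed in KD blastocysts are shown because some of them share bases with a tRNA gene. Each line holds the last 30 bases on the plus strand of GRCm38, with the stop codon bases that the gene itself holds in capitals. They lie at chrM:3678-3707, chrM:4922-4951, chrM:6843-6872, chrM:7667-7696, chrM:9361-9390 and chrM:9777-9806. As annotated, mt-Co3 holds only the T of its stop codon and the other 5 genes hold a whole one. The last 2 bases of mt-Nd1 are also the first of mt-Ti, at chrM:3706-3707, and those of mt-Nd2 the first of mt-Tw, at chrM:4950-4951, both on the same strand. The last 3 bases of mt-Co1, its stop codon, are shared with mt-Ts1 on the opposite strand, at chrM:6870-6872. The end of mt-Co1 at 6872 lies ahead of mt-Td, the next plus-strand tRNA, which begins at 6942, so an annotated end need not be where a tail is added.
mt-Nd1: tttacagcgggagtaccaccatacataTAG
mt-Nd2: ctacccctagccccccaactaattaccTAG
mt-Co1: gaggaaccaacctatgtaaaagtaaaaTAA
mt-Co2: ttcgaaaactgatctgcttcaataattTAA
mt-Co3: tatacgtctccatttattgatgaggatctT
mt-Nd3: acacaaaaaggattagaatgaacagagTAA
The longest run of A inside a member was 3 to 8 bases in mRNAs, 5 to 7 in rRNAs and 2 to 8 in tRNAs.

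**Figure D3:**
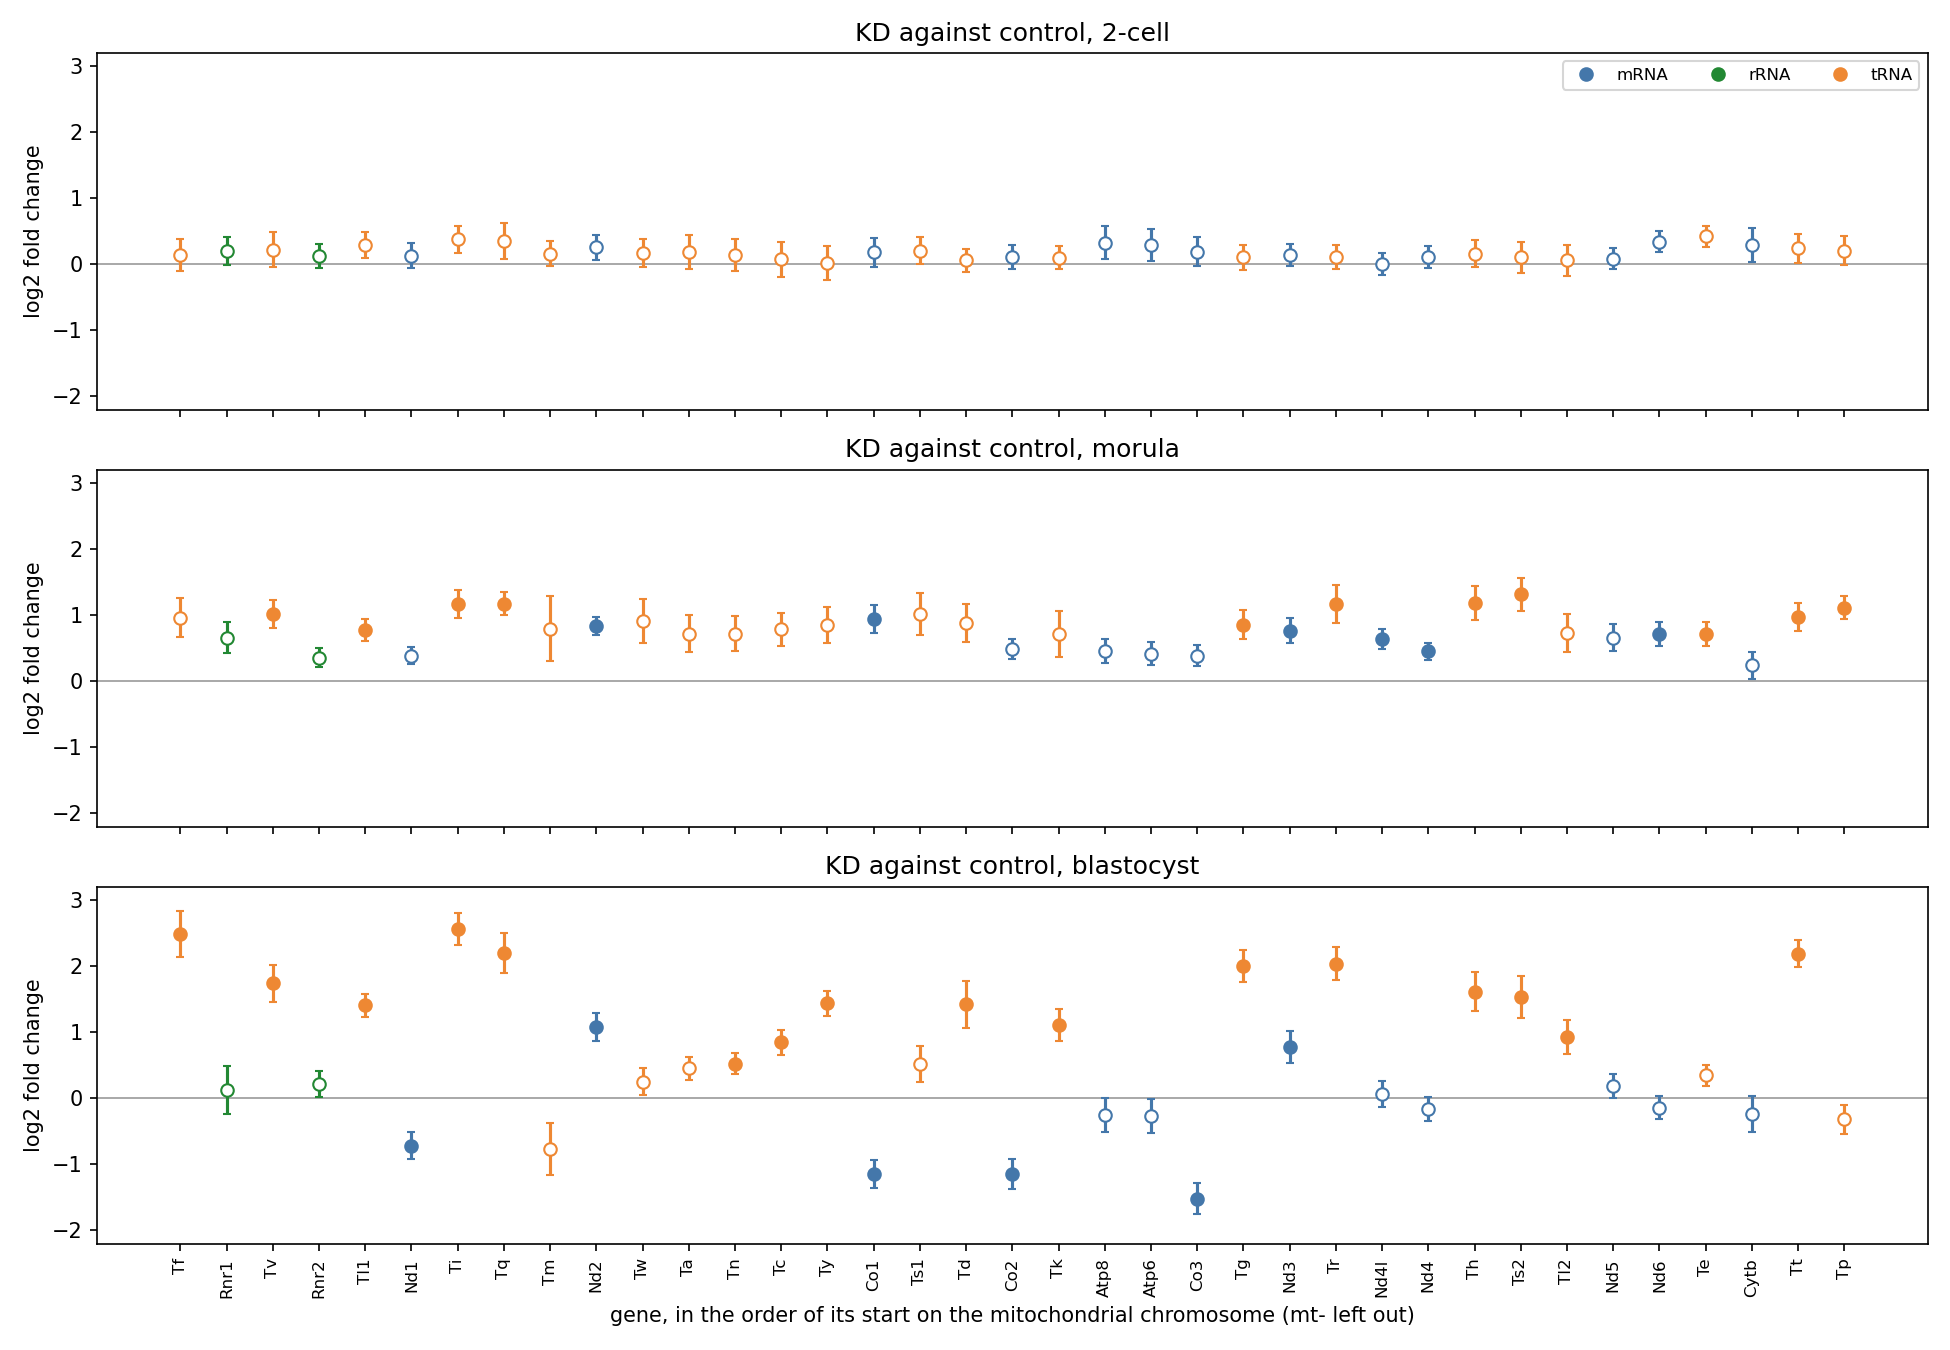
Log2 fold change of KD against control for each of the 37 genes, at equal steps in the order of their starts on the mitochondrial chromosome, in each stage. Colours mark mRNAs, rRNAs and tRNAs, bars give the SE, and filled points have an adjusted p under 0.05 by limma. In blastocysts the values run from -1.52 for mt-Co3 to 2.56 for mt-Ti, while in morulae all 37 lie between 0.24 and 1.32.

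Some members have copies in the nuclear genome, and reads may be split between them. In the reference, 10 genes outside mitochondrial DNA held an exact run of at least 100 bases of a member, and together these took another 3.73 to 9.58% of total FPKM. The copy with the highest mean, Gm10925 at 18952 FPKM, matches mt-Atp6 over all of its 678 bases and had 1.02 to 1.03 times the FPKM of mt-Atp6 in every library. Gm28661 at 3726 FPKM had 1.05 to 1.08 times that of mt-Co2, and Gm28437 at 3560.1 FPKM 1.00 to 1.02 times that of mt-Co3. These values cannot be told apart from those of the members. Summed with its copies, mt-Co1 had -1.24 (adjusted p = 0.000898) in KD blastocysts and 0.82 (adjusted p = 0.0217) in KD morulae by limma. The sum of mt-Co2 had -1.14 (adjusted p = 0.00263), that of mt-Co3 -1.53 (adjusted p = 0.000525) and that of mt-Nd2 1.07 (adjusted p = 0.00241) in KD blastocysts. Copies were found for mt-Nd2, mt-Nd3, mt-Nd4, mt-Nd4l, mt-Co1, mt-Co2, mt-Co3 and mt-Atp6. The tRNAs, at 59 to 75 bases, are shorter than the run of 100 bases that this search needed, so the search could find no copy of a tRNA.

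Nuclear genes that copy and transcribe mitochondrial DNA were followed as a list of 20. In KD morulae 1 of them was higher and 5 lower of 20 tested, beside 4.23% and 9.04% of all genes. In KD blastocysts 5 were higher and 5 lower, beside 16.7% and 19.8%. The medians were -0.09 and -0.07 on the log2 scale, beside 0.02 and 0.00470 over all genes tested. In 2-cell embryos 0 of 19 tested passed in either direction by limma, with 0 higher and 1 lower at an unadjusted p under 0.05, beside 2.89% and 2.87%. Tfb2m, which helps the polymerase to melt promoters, rose in KD morulae, from 31.95 ± 1.03 FPKM (SD, n = 4) to 52.6 ± 1.35 FPKM (SD, n = 3), and in KD blastocysts, from 14.4 ± 2.34 FPKM (SD, n = 4) to 28.1 ± 2.01 FPKM (SD, n = 4). The log2 fold changes were 0.83 (SE 0.13, adjusted p = 0.00523) and 0.93 (SE 0.15, adjusted p = 0.000650). Polrmt, the mitochondrial RNA polymerase, rose in KD blastocysts by 0.60 (SE 0.15, adjusted p = 0.00959), from 1.00 ± 0.221 FPKM (SD, n = 4) to 2.03 ± 0.220 FPKM (SD, n = 4). Tfam, which packs mitochondrial DNA and starts transcription, did not pass, with -0.62 (adjusted p = 0.0752) in morulae and -0.087 (adjusted p = 0.691) in blastocysts. Polg, the DNA polymerase, had 0.24 (adjusted p = 0.482) and -0.092 (adjusted p = 0.846), and the helicase Twnk 0.13 (adjusted p = 0.591) and 0.51 (adjusted p = 0.0575). Of the genes past a log2 fold change of 1, Mterf1a, a factor that ends transcription behind the rRNAs, fell in KD morulae by 1.02 (SE 0.28, adjusted p = 0.0371), and in KD blastocysts by 1.15 (SE 0.29, adjusted p = 0.00891). For morulae the adjusted p of Mterf1a lay between 0.0715 and 0.126 without morula control library 2, 7 or 8 or morula KD library 1, 2 or 6. Mterf1a in KD morulae did not pass with no filter (adjusted p = 0.174) or with the library number as a block (adjusted p = 0.0694). Mterf1a in KD blastocysts did not pass with no filter (adjusted p = 0.0650). Mterf1b fell in KD blastocysts by 1.01 (SE 0.25, adjusted p = 0.00840), Mterf2 by 1.62 (SE 0.22, adjusted p = 0.000228) and the primase Primpol by 1.07 (SE 0.20, adjusted p = 0.00149). Mterf1b in KD blastocysts did not pass with no filter (adjusted p = 0.0552).

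Genes for the processing, stability and decay of mitochondrial RNA were a list of 28, of which 27 were in the table. In KD morulae 0 were higher by limma and 3 lower of 26 tested, beside 4.23% and 9.04% of all genes. In KD blastocysts 3 were higher and 9 lower of 27, beside 16.7% and 19.8%. The medians were -0.30 in morulae and -0.13 in blastocysts, beside 0.02 and 0.00470 over all genes tested. By the unadjusted p, 0 were higher and 9 lower in KD morulae, beside 12.8% and 17.7% of all genes. At the 2-cell stage 0 of 24 passed in either direction by limma, beside 0% and 0% of all genes. By the unadjusted p, 0 were higher and 0 lower at this stage, beside 2.89% and 2.87%. Pnpt1, an exoribonuclease for mitochondrial RNA, fell in KD morulae by 0.86 (SE 0.21, adjusted p = 0.0251), and in KD blastocysts by 0.95 (SE 0.17, adjusted p = 0.00121). For morulae the adjusted p of Pnpt1 lay between 0.0591 and 0.0944 without morula control library 7 or morula KD library 1 or 2. Pnpt1 in KD morulae did not pass with no filter (adjusted p = 0.114) or with the library number as a block (adjusted p = 0.0790). Slirp, which binds mRNAs together with Lrpprc, fell in KD blastocysts by 0.71 (SE 0.24, adjusted p = 0.0380), and the adjusted p of Slirp lay between 0.0566 and 0.0994 without blastocyst control library 1, 4 or 6 or blastocyst KD library 1, 5 or 6. Slirp in KD blastocysts did not pass with no filter (adjusted p = 0.143). Lrpprc itself had 0.12 (adjusted p = 0.596) in morulae and 0.33 (adjusted p = 0.187) in blastocysts, and at the 2-cell stage, with 0.435 to 1.41 FPKM, it did not pass the filter. Mtpap, the poly(A) polymerase of mitochondria, fell in KD blastocysts by 0.45 (SE 0.16, adjusted p = 0.0489), and the adjusted p of Mtpap lay between 0.0680 and 0.129 without blastocyst control library 1, 4, 5 or 6 or blastocyst KD library 1, 5 or 6. Mtpap in KD blastocysts did not pass with a pseudocount of 0.1 (adjusted p = 0.0502), with no filter (adjusted p = 0.0675), in FPKM as deposited (adjusted p = 0.0524), scaled to the nuclear total (adjusted p = 0.0675), without a trend in limma (adjusted p = 0.0513) or with the library number as a block (adjusted p = 0.0576). Past a log2 fold change of 1, Hsd17b10, a part of the enzyme that cuts tRNAs at their front end, fell in KD blastocysts by 1.64 (SE 0.27, adjusted p = 0.000761). Fastkd2, which binds mt-Rnr2 and mt-Nd6 RNA, fell by 1.12 (SE 0.18, adjusted p = 0.000627), and Nsun4, which methylates mitochondrial rRNA, by 1.01 (SE 0.17, adjusted p = 0.000875).

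Of 9 nuclear regulators of mitochondrial biogenesis, 6 were tested at each stage, and in KD blastocysts 1 was higher and 0 lower by limma, beside 16.7% and 19.8% of all genes. That gene, Pprc1, is named after its values were seen, with 0.79 (SE 0.22, adjusted p = 0.0142). The median of the 6 was 0.33 in blastocysts and 0.16 in morulae, beside 0.00470 and 0.02 over all genes tested. By the unadjusted p, 1 was higher and 0 lower in blastocysts, beside 21.8% and 24.2%. In KD morulae 0 of 6 passed by limma in either direction, beside 4.23% and 9.04% of all genes. At an unadjusted p under 0.05, 0 were higher and 0 lower there, beside 12.8% and 17.7%. In KD 2-cell embryos 0 of 6 passed by limma, beside 0% and 0% of all genes. By the unadjusted p, 0 were higher and 0 lower in 2-cell embryos, beside 2.89% and 2.87%. Nrf1, which drives genes for respiratory subunits, had -0.024 (adjusted p = 0.967) in morulae and 0.00449 (adjusted p = 0.991) in blastocysts. Ppargc1a was listed at 0 in all morula and blastocyst libraries and at up to 0.132 FPKM in 2-cell embryos. Ppargc1b lay at or under 0.387 FPKM in every library, and neither passed the filter.

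The nuclear-encoded subunits of the same complexes and of complex II were 78 protein-coding genes, with Atp5o listed under separate gene entries. In KD blastocysts 0 were higher by limma and 40 lower of 77 tested, beside 16.7% and 19.8% of all genes, with a median of -0.59 beside 0.00470 over all genes. In KD morulae 0 were higher by limma and 8 lower of 77, beside 4.23% and 9.04% of all genes, with a median of -0.08 beside 0.02. At an unadjusted p under 0.05, 2 were higher and 53 lower in blastocysts, beside 21.8% and 24.2% of all genes, and 5 higher and 13 lower in morulae, beside 12.8% and 17.7%. At the 2-cell stage 0 of 76 passed in either direction by limma, with a median of 0.02, and at an unadjusted p under 0.05 1 was higher and 5 lower, beside 2.89% and 2.87%. The lowest in blastocysts were Ndufs4 of complex I, at -2.34 (SE 0.22, adjusted p = 1.93e-05), Sdhd of complex II, at -2.13 (SE 0.24, adjusted p = 5.92e-05), and Atp5mpl of ATP synthase, at -1.34 (SE 0.35, adjusted p = 0.0101). Among those past the test, the highest were Ndufa9 at -0.44 (adjusted p = 0.0419), Ndufa10 at -0.45 (adjusted p = 0.0424) and Ndufs5 at -0.59 (adjusted p = 0.0445), all of complex I. In blastocysts the adjusted p of Ndufa9 lay between 0.0710 and 0.0995 without blastocyst control library 1, 4 or 6 or blastocyst KD library 1, 5 or 6. In the same way the adjusted p of Ndufa10 lay between 0.0501 and 0.118 without blastocyst control library 1, 4, 5 or 6 or blastocyst KD library 1, 5 or 6. Last, the adjusted p of Ndufs5 lay between 0.0545 and 0.114 without blastocyst control library 1, 4 or 6 or blastocyst KD library 1, 5 or 6. Ndufa9 in KD blastocysts did not pass with no filter (adjusted p = 0.0561). Ndufa10 in KD blastocysts did not pass with no filter (adjusted p = 0.0665). Ndufs5 in KD blastocysts did not pass with no filter (adjusted p = 0.140). Atp5mpl in KD blastocysts did not pass with no filter (adjusted p = 0.0844). In KD morulae Ndufs4 fell by 1.38 (SE 0.37, adjusted p = 0.0350), and Sdhd fell by 1.21 (SE 0.18, adjusted p = 0.00436). Nearest to 0 among the 8 that passed were Ndufb3 at -0.87 (adjusted p = 0.00727), Ndufv1 at -0.84 (adjusted p = 0.0102) and Sdhc at -0.71 (adjusted p = 0.0120). In morulae the adjusted p of Ndufs4 lay between 0.0598 and 0.0783 without morula control library 2, 7 or 8 or morula KD library 1 or 2. There also the adjusted p of Ndufv1 was 0.0529 without morula KD library 2, and the adjusted p of Sdhc was 0.0528 without morula KD library 2. Ndufs4 in KD morulae did not pass with no filter (adjusted p = 0.189). Ndufv1 in KD morulae did not pass with no filter (adjusted p = 0.0510). From control 2-cell embryos to control morulae 75 of 77 subunits were higher, beside 43.0% of all genes, with a median of 2.36 beside 0.10.

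Summed markers of stage and lineage differed between groups, while single markers of a list did not all move alike. The summed FPKM of 5 markers of the 2-cell embryo, led by Tcstv3, were 354.002 to 601 in control and 443 to 528 in KD 2-cell libraries, and 0.331 to 2.54 in control and 2.95 to 23.9 in KD blastocysts. Trophectoderm markers, 5 genes led by Krt18, summed to 981 to 1466 in control and 581 to 774 in KD blastocysts, and to 107 to 145 in control and 82.7 to 116 in KD morulae. Inner cell mass markers, 5 genes led by Nanog, summed to 119 to 165 in control and 31.6 to 49.1 in KD morulae, and to 110.3 to 219 in control and 135 to 274 in KD blastocysts. Nearly all of these sums came from Nanog and Pou5f1. Gata4 of the same list, near the floor, went the other way in morulae, with 0.0496 to 0.0716 in control and 0.0783 to 0.196 in KD libraries. In blastocysts Sox2 had means of 1.67 in control and 1.36 in KD, and Sox17 of 0.596 and 0.277, with overlapping libraries. No gene of these 3 lists was at 0 in all libraries of a group other than 1 trophectoderm gene in control 2-cell embryos. The trophectoderm sums were lower in KD blastocysts and the 2-cell sums higher, without overlap, and the part of this in the mitochondrial values was not tested. In blastocysts most of the trophectoderm sum came from Krt18 and Krt8, while Tfap2c of the same list went the other way, with no control blastocyst library above 8.36 and no KD blastocyst library under 10.6, and Cdx2 had means of 1.79 and 1.89. Among markers of other cells, 5 genes of cumulus cells summed to at most 0.599 FPKM, 3 of sperm to at most 1.24 and 3 of fibroblasts to at most 0.643 in any library. Erythroid markers, 3 genes of which 2 were at 0 in each group, summed to 1.16 to 3.63 in control and 4.23 to 7.77 in KD morulae, and to 0.599 to 1.79 in control and 2.09 to 3.71 in KD blastocysts, all from Hba-a1. Immune markers, Cd68 and Ptprc, the latter at 0 in both morula groups and in KD blastocysts, summed to 4.98 to 7.94 in control and 9.31 to 15.0 in KD blastocysts, and to 1.73 to 3.42 in control and 4.81 to 8.83 in KD morulae. Their part in the mitochondrial values was not tested either.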

How the data were processed

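The authors deposited FPKM values for 55335 genes in 22 libraries, made with STAR and StringTie 2.1.4 on mm10. The members and lists were chosen with earlier results of these data known. Values were rescaled between libraries with median-of-ratios factors, and log2(FPKM + 1) was fitted with limma 3.58.1 in R 4.3.3 (eBayes with a trend), for genes that reached FPKM 1 in 3 or more of the fitted libraries. Benjamini-Hochberg adjustment ran over all genes tested. Shares were tested with two-sided exact permutation tests in Python 3.11.15 with numpy 2.4.6 and pandas 2.3.3, and plots used matplotlib 3.10.9. Named genes were the mRNAs and rRNAs past the test, the 2 highest and 2 lowest mRNAs and rRNAs in each comparison, the 3 tRNAs of highest mean FPKM, always-named nuclear genes, list genes past the test with an absolute log2 fold change above 1, and the 3 highest and 3 lowest subunits past it. Alternatives were a pseudocount of 0.1, no filter, FPKM as deposited, scaling to the nuclear total, eBayes without a trend, the replicate number as a block, a batch term for low against high replicate numbers, sums with nuclear copies, and leaving out each library. For shares, the denominator, length weighting and members counted were varied. Copies were sought in transcript sequences, since no genome sequence was at hand. The fit was also run on simulated data, of which no outcome is given here. The depth in reads is unknown, so no counting error is given.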

Additional observations from a re-analysis of the deposited data

Results flagged for a closer look

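In 76 groups of 4 libraries, a value was singled out when its gap to the nearest other was a large part of the group's range, which chance does in about 1 in 20 groups. That is about 3.8 of the 76, and 4 were singled out. Control 2-cell library 2 was singled out for mt-Nd1 at 8757 FPKM (others 7110.0 to 7389), mt-Nd2 at 2559 (others 1883 to 1986) and mt-Tm at 4621 (others 3570.3 to 3682). Control morula library 1 was singled out for mt-Tm at 977 FPKM (others 3830 to 4317).

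The KD effect differed between morulae and blastocysts for some values, by a test of the difference itself. On the log2 scale by limma it was -2.13 (adjusted p = 0.000330) for mt-Co1, -1.95 (adjusted p = 0.000574) for mt-Co3, -1.67 (adjusted p = 0.00143) for mt-Co2, -1.14 (adjusted p = 0.00469) for mt-Nd1 and -0.90 (adjusted p = 0.0291) for mt-Nd6. Among tRNAs it was 1.35 (adjusted p = 0.0180) for mt-Ti, 1.17 (adjusted p = 0.0209) for mt-Tt, 1.11 (adjusted p = 0.0485) for mt-Tg and -1.47 (adjusted p = 0.00498) for mt-Tp.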

How the results depend on the processing

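Of 1573 values of log2 fold changes under alternatives, 1334 kept their direction and side of the threshold, 207 no longer passed, 3 newly passed and 29 reversed. Of 318 values of shares and counts, 287 stayed, 12 newly passed and 19 moved. The cause was not tested.

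Share differences with an adjusted p of 0.04 were, without the 22 tRNAs, 2.36 points for KD morulae, -2.89 for KD blastocysts, -8.76 from control 2-cell embryos to morulae, 3.42 on to blastocysts and -1.83 from KD morulae to blastocysts. With nuclear copies they were 4.004, -4.60, -13.3, 5.48 and -3.13. Leaving out 1 library gave -3.37 to -1.74 for KD blastocysts and 2.25 to 3.88 for control morulae to blastocysts.

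The 17 members higher in KD morulae were 2 without the filter, 11 as deposited, 30 with the replicate block, 31 with the number range as a batch and 5 to 27 on leaving out 1 library. From control 2-cell embryos to morulae the 12 higher were 5 with the nuclear total, against 33.5% of all genes. From KD 2-cell embryos to morulae the 17 higher were 11 and the 6 lower 17 with it, against 32.8% and 49.7%, and the lower were 3 without the filter, against 21.8%, and 3 to 9 on leaving out 1 library. The 23 lower from KD morulae to blastocysts were 15 without the filter, against 4.91%. For the difference of KD effects the 3 higher were 5 as deposited, against 7.02%, and 1 to 4 on leaving out 1 library. The shares of all genes in the fits behind the ranges of 3 to 9 and 1 to 4 are not given beside them.

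Reversed log2 fold changes were, for mt-Nd4l in KD 2-cell embryos (0.00281), -0.064 as deposited, -0.035 with the nuclear total, -0.066 with the block, -0.026 with the batch, -0.00254 with copies and -0.066 to 0.082 on leaving out 1 library. With the nuclear total, control 2-cell to morula values were -0.21 for mt-Nd6 and -0.10 for mt-Tl1, and KD ones -0.27 for mt-Nd5 and -0.51 for mt-Tm. From KD morulae to blastocysts mt-Nd1 had 0.14 as deposited, 0.064 with the nuclear total and -0.12 to 0.023 on leaving out 1 library, and mt-Nd4 0.084 and 0.00337 with these scalings. On leaving out 1 library mt-Tm had -0.60 to 0.19 from control 2-cell embryos to morulae and -0.52 to 0.13 from KD morulae to blastocysts. The difference of KD effects for mt-Nd3 was 0.13 as deposited and -0.23 to 0.12 on leaving out 1 library. The last fit had no alternative without the filter or with the nuclear total.

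Deviations from the group means of same-numbered KD and control libraries correlated across genes at r of 0.0146 to 0.214 in 2-cell embryos, 0.0944 to 0.181 in morulae and -0.111 to 0.354 in blastocysts. Pairs of different numbers had r of -0.237 to 0.205, -0.278 to 0.347 and -0.381 to 0.401 at these stages. In morulae these parted by the range of library numbers. Control library 1 with KD library 2 had 0.135, and control 2 with KD 1 had 0.140. Control 7 and 8 had 0.185 and 0.347 with KD 6. Morula pairs across the ranges had -0.278 to -0.0945. In 2-cell embryos pairs across the ranges had -0.237 to 0.0103, and different-numbered pairs within a range -0.0211 to 0.205. Genes are not independent replicates. The 30 members higher in KD morulae with the number as a block come from 2 pairs and 1 residual degree of freedom.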
